A study of Mus musculus with 8 samples.

Results

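The genes described here encode 10 C-type lectin receptors of macrophages: Mgl2, Clec10a, Mrc1, Clec7a, Clec4n, Clec4e, Clec4d, Clec5a, Clec4a2 and Clec12a. They were chosen by symbol from the 54532 genes of the deposited count table, and all 10 were among the 12234 genes with enough reads to be tested. RNA was sequenced from mouse bone marrow-derived macrophages (BMDMs), which are macrophages obtained from bone marrow cells in culture, in 4 groups of 2 libraries numbered 1 and 3. Control cells received no stimulus. LPS cells received 100 ng/ml lipopolysaccharide, a component of the Gram-negative bacterial envelope sensed by Tlr4, for 4 h. IL-4 cells received 20 ng/ml interleukin 4, a cytokine of type 2 immunity, for 24 h. In the group called IL-4 then LPS, 24 h of 20 ng/ml IL-4 was followed by a wash and 4 h of 100 ng/ml LPS. Strain, age and genotype of the mice are not given in the sources used here. The labels do not say how many animals or cultures stand behind a library, or whether groups share them, so p-values measure the spread between these libraries. Whether IL-4 cells without LPS were also washed was not given either.

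C-type lectin receptors carry a carbohydrate-recognition-type domain outside the cell and take part in uptake of glycoproteins and in sensing of fungi, mycobacteria and dead cells. Activating members signal through a tyrosine motif of their own or through the adaptor chains Fcer1g and Tyrobp, which recruit the kinase Syk and, further on, the Card9, Bcl10 and Malt1 complex. Inhibitory members carry a tyrosine motif that recruits phosphatases such as Ptpn6. In macrophages the galactose-type lectins and the mannose receptor are commonly used as signs of IL-4 exposure, whereas Mincle, encoded by Clec4e, is commonly used as a sign of stimulation by microbial products.

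The bases before the start sites of 4 of these genes are shown because the largest rise with IL-4 (Mgl2), the highest level under IL-4 (Clec7a) and the pair of neighbours that rose with LPS (Clec4e and Clec4d) concern them. Each is the 250 bases upstream of the RefSeq start site (GRCm38.p6), in the direction of transcription. Of the 10 genes, 8 had an entry, and Clec10a and Clec4n had none. Capitals mark matches, on either strand, to 5 motifs: STAT6-type (TTC and GAA with 4 bases between), NF-kB-type (GGG and CC with 5 bases between), C/EBP-type (TTGCNNAA), AP-1 (TGANTCA) and PU.1-type (GAGGAA). The windows lie at chr11:70130107-70130356 on the plus strand for Mgl2, chr6:129472780-129473029 on the minus strand for Clec7a, chr6:123289872-123290121 on the minus strand for Clec4e and chr6:123261857-123262106 on the plus strand for Clec4d.
Mgl2: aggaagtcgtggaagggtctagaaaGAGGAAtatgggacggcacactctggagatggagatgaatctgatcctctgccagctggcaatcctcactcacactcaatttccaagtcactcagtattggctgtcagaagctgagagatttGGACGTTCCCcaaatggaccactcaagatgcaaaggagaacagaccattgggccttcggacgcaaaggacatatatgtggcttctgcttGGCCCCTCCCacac
Clec7a: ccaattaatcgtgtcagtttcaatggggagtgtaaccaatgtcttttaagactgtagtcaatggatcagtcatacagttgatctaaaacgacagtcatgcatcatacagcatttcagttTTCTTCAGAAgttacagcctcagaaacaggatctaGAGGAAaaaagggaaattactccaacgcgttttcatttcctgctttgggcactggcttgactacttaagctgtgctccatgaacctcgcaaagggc
Clec4e: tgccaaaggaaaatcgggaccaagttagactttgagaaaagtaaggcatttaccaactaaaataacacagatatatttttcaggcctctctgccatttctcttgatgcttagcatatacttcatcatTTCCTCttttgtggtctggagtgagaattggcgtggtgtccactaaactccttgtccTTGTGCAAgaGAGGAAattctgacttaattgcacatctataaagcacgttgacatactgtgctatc
Clec4d: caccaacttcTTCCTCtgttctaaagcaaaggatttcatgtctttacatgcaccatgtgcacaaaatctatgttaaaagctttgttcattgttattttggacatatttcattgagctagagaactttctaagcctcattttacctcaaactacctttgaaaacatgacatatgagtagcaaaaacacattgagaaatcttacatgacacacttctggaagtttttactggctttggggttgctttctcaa
The Mgl2 window held 2 NF-kB-type matches, both on the minus strand, and 1 PU.1-type match, and no STAT6-type match. The Clec7a window held 1 STAT6-type and 1 PU.1-type match. In the Clec4e window a C/EBP-type match on the minus strand stood close upstream of a PU.1-type match on the plus strand, and a further PU.1-type match lay farther from the start site. The Clec4d window held 1 PU.1-type match. Among the windows not shown, Clec5a also held a STAT6-type match, Mrc1 an NF-kB-type match, and Clec12a C/EBP-type and AP-1 matches. Each of these also held PU.1-type matches, and the Clec4a2 window held no match. How common these letters are differed by motif. Of 32851 promoter windows of the same length, 45.8% held the NF-kB-type, 23.3% the PU.1-type and 9.56% the C/EBP-type letters. AP-1 letters stood in 6.75% and STAT6-type letters in 5.85% of them. The matches describe the letters only. The last bases of the Mgl2 window lie inside the longer first exon of GENCODE M21. They include the NF-kB-type match nearer the RefSeq start site.

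The libraries held 7924932 to 9431852 counts each, and the 10 genes took 0.194% to 0.511% of them. All 10 macrophage markers examined were detected, with a summed level of 13020 to 25570 CPM per library (counts scaled to the library total, with factors from the trimmed mean of M-values). Of the lymphocyte markers 7 of 9 had no read in any library, as had 5 of 8 mast cell, basophil and eosinophil markers, 3 of 11 neutrophil markers and 2 of 5 erythroid markers. Replicate 1 of every group held 2936 to 4465 reads of Xist and no read of 4 Y-linked genes, whereas replicate 3 of every group held Y-linked reads and no Xist read. The 2 libraries of every group thus came from mice of different sex, which the labels do not give, and what else the replicate number stands for was not given. Results are therefore given as log2 fold change ± SE from all 8 libraries, and again with a term for the replicate number where that term changed the call. A gene rose or fell where the edgeR quasi-likelihood test gave an adjusted p under 0.05 over all 12234 genes. In bulk RNA, fewer cells with a transcript and less of it per cell cannot be told apart.

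Scaled to transcript length, Clec4d, Clec7a and Clec4e had the 3 highest group means in every group, in an order that differed with the stimulus. Without LPS the third place of Clec4e rested on replicate 3. In control replicate 1 it lay below Clec4n (36.4 against 43.8 CPM per kb of exon). In replicate 1 with IL-4 it measured 15.8 CPM per kb, below Mgl2 (53.3), Mrc1, Clec12a, Clec4a2 and Clec4n (24.2), against 67.7 in replicate 3. In control macrophages Clec4d led at 342 ± 44.3 CPM per kb of exon (SD, n = 2), followed by Clec7a at 157 ± 27.1. Clec4e (60.8 ± 34.6), Clec4n (38.8 ± 7.06) and Clec12a (36.6 ± 4.55 CPM per kb) came next, and these 3 did not differ beyond their spread. The libraries of Clec5a (15.1 ± 8.43) overlapped those of Clec4a2 (14.8 ± 3.26) and of Mrc1 (8.81 ± 3.76 CPM per kb), and those of Mrc1 lay below those of Clec4a2. Clec10a (1.011 ± 0.513) and Mgl2 (0.741 ± 0.180 CPM per kb) were lowest, with overlapping libraries.
With LPS, Clec4e (728 ± 293 CPM per kb) and Clec4d (650 ± 92.3) stood first and second without separating from each other, and Clec7a followed at 81.5 ± 20.7. Clec12a (46.4 ± 3.41), Clec5a (37.8 ± 11.7), Clec4n (16.04 ± 4.56) and Mrc1 (13.05 ± 8.39 CPM per kb) came next. Libraries of Clec12a overlapped those of Clec5a, and libraries of Clec4n overlapped those of Mrc1. With IL-4, Clec7a was first at 243 ± 18.1 CPM per kb and Clec4d second at 198 ± 27.7. Mgl2 moved from the last place to the fourth, at 39.96 ± 18.9 CPM per kb, a level that overlapped those of Clec4e (41.8 ± 36.7) and Clec12a (29.1 ± 4.76). Clec4a2 (22.8 ± 3.19), Clec4n (21.8 ± 3.44) and Mrc1 (21.1 ± 8.38 CPM per kb) followed with overlapping libraries. After IL-4 then LPS the order began with Clec4e (625 ± 210 CPM per kb), Clec4d (410 ± 96.3) and Clec7a (139 ± 30.1), where libraries of Clec4e and Clec4d overlapped. Mgl2 again came next, at 47.1 ± 21.01, overlapping Clec5a (44.6 ± 7.52). The summed length-scaled level of the 10 genes was 618 to 711 CPM per kb in the 4 libraries without LPS and 1178 to 1848 in the 4 with it.

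**Figure D1:**
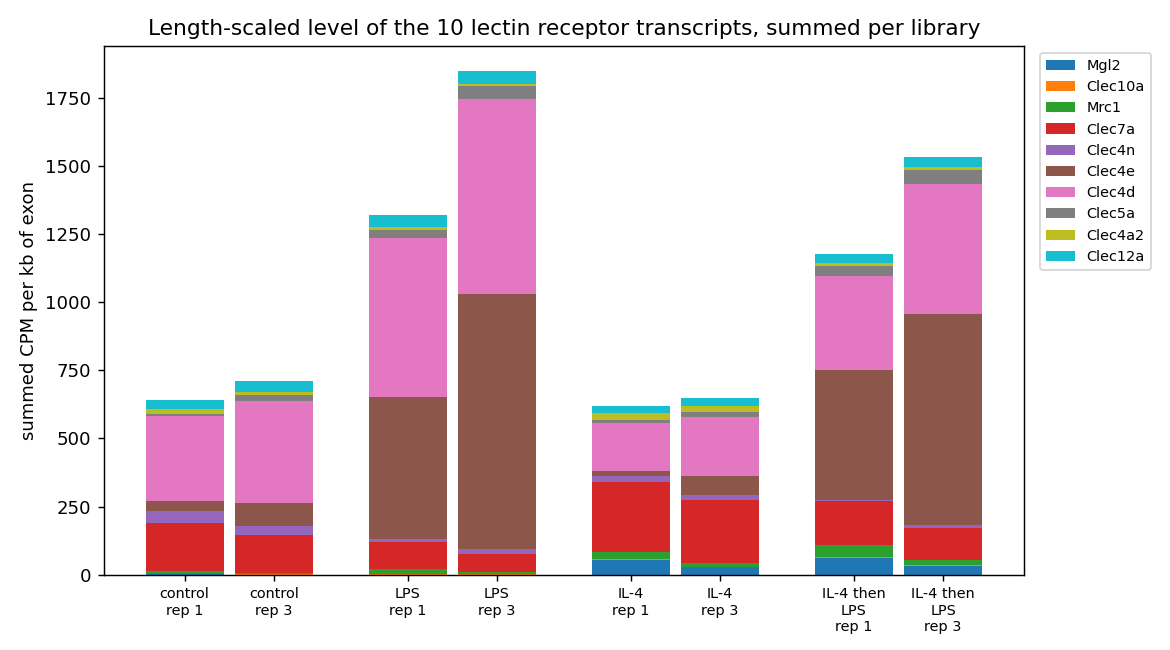
Stacked bars of the length-scaled level (CPM per kb of exon, linear axis from 0) of the 10 transcripts in each of the 8 libraries, 1 colour per gene. The bars without LPS end between 618 and 711 and those with LPS between 1178 and 1848, where Clec4e and Clec4d fill most of the height.

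Among the endocytic lectins Mgl2 rose with IL-4, and Clec10a and Mrc1 passed once the replicate number was in the fit. Mgl2, a receptor for terminal galactose and N-acetylgalactosamine, measured 1.82 and 1.29 CPM in control replicates 1 and 3, and 1.54 and 0.553 CPM with LPS. It measured 112 and 55.8 CPM with IL-4, and 129.8 and 67.6 CPM after IL-4 then LPS. Every library with IL-4 lay far above every library without it, and within each group replicate 1 was the higher. The rise was 53.1-fold at rest (log2 5.73 ± 0.547, adjusted p 0.0128) and 93.3-fold under LPS (6.54 ± 0.607, adjusted p 0.00907). The low groups rest on 34 control and 15 LPS reads over both libraries. The call at rest was lost without control replicate 1 (adjusted p 0.164) or control replicate 3 (0.156). The call under LPS was lost without LPS replicate 1 (0.101), without LPS replicate 3 (0.0922) and when the 2 groups were fitted alone (0.0506). Its log2 fold change stayed between 5.12 and 6.10 at rest and between 5.99 and 7.45 under LPS over the 15 alternatives of each comparison. With the replicate term the SE fell to 0.173 and 0.198, and the adjusted p was 1.54e-06 in both comparisons.

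Clec10a encodes MGL1, the closest relative of MGL2, 18.65 kb farther along chromosome 11. It measured 3.98 and 1.88 CPM in the controls, 7.0 and 3.59 with LPS, 11.7 and 4.53 with IL-4, and 12.3 and 6.75 CPM after IL-4 then LPS. The IL-4 libraries lay above the controls, but replicate 3 with IL-4 stood only slightly above control replicate 1. The IL-4 difference of 1.45 ± 0.592 did not pass at rest (adjusted p 0.659), and passed with the replicate term (1.43 ± 0.253, adjusted p 0.0242). Within the replicate numbers it was 1.5 and 1.18. Under LPS it was 0.84 ± 0.589 (adjusted p 0.754, and 0.131 with the term). The 2 genes have similar sequences: 12.2% of the 50-base stretches of Mgl2 exons also occur in Clec10a, and 8.49% of those of Clec10a in Mgl2. How reads that fit both genes were counted is not given, so part of either count is uncertain.

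Mrc1 encodes the mannose receptor CD206, an endocytic receptor for mannosylated glycoproteins. Control libraries measured 73.0 and 39.2 CPM and IL-4 libraries 172 and 96.6 CPM. With LPS it measured 121 and 45.3 CPM, and after IL-4 then LPS 270.3 and 123 CPM. The groups with IL-4 did not overlap those without it at the same LPS state, although replicate 1 exceeded replicate 3 by about as much as IL-4 exceeded control. The IL-4 difference was 1.26 ± 0.564 at rest (adjusted p 0.696) and 1.24 ± 0.564 under LPS (adjusted p 0.607). In the fit with that term the differences were 1.27 ± 0.144 (adjusted p 0.00369) and 1.28 ± 0.144 (adjusted p 0.0043). Mrc1 also hosts Mir511, which shares no exon base with it.

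Over all 10 genes, 1 rose and 0 fell with IL-4 at rest, where 0.0654% of tested genes passed (0.0572% higher and 0.00817% lower). Under LPS 1 rose and 0 fell, where 0.0654% passed (0.049% higher and 0.0163% lower). Fitting the replicate number as well, 5 rose and 1 fell at rest, where 2.35% of genes passed (1.5% higher and 0.858% lower). Under LPS 3 rose and 1 fell in that fit, where 2.3% passed (1.08% higher and 1.22% lower). At rest those were Mgl2, Clec10a, Mrc1, Clec7a and Clec4a2 upward and Clec4d downward, and under LPS Mgl2, Mrc1 and Clec7a upward and Clec4d downward. The members' median IL-4 difference was 0.26 at rest, against 0.00 over all tested genes, and 0.31 under LPS, against -0.03. Of the 10 differences, 9 had the same sign without and with LPS, as did 64.6% of all tested genes, and Clec5a was the exception. Averaged over both LPS states, a contrast chosen after the data were seen, Mgl2 alone passed (6.14 ± 0.408, adjusted p 0.00101, with 0.67% of genes called, 0.376% higher and 0.294% lower). In that average with the term 5 rose and 3 fell, against 6.49% of genes (3.21% higher and 3.28% lower), the 3 being Clec4n, Clec4d and Clec12a. The macrophage marker list summed to 18830 to 25570 CPM in controls and 13020 to 17900 CPM with IL-4. It summed to 21280 to 23880 CPM with LPS and 13330 to 18700 CPM after IL-4 then LPS. The median IL-4 difference of its 10 genes was -0.36 at rest and -0.34 under LPS. Of them 0 were called in either comparison, and with the replicate term 2 fell at rest and 3 under LPS. Some markers of other cells differed with IL-4. Siglecf, an eosinophil marker that macrophages can express, had 58 to 80 reads in control and 173 to 206 in IL-4 libraries (log2 difference 1.42, adjusted p 0.366), and it rose with the replicate term. It took the summed eosinophil, basophil and mast cell list from 5.74 to 6.92 CPM in controls to 15.96 to 18.5 CPM with IL-4, while Epx, Mcpt4, Mcpt8, Ms4a2 and Fcer1a had no read in any library. The dendritic cell list, whose cells can also express Mgl2, summed to 15.1 to 21.03 CPM in controls and 12.7 to 15.9 CPM with IL-4, and its genes went both ways. Kit had 209 and 121 reads in controls and 101 and 57 with IL-4, and Batf3 had 18 and 16 reads in controls and 54 and 69 with IL-4. The 5 tested genes of that list had a median log2 difference of 1.17, and 0 were called, with or without the replicate term. Cd4, the tested gene of the lymphocyte list, had 160 and 36 reads in controls and 38 and 15 with IL-4. Its IL-4 difference was -1.87 at rest and -1.89 under LPS, and it fell in both with the replicate term. The part of these markers in the results was not tested.

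**Figure D2:**
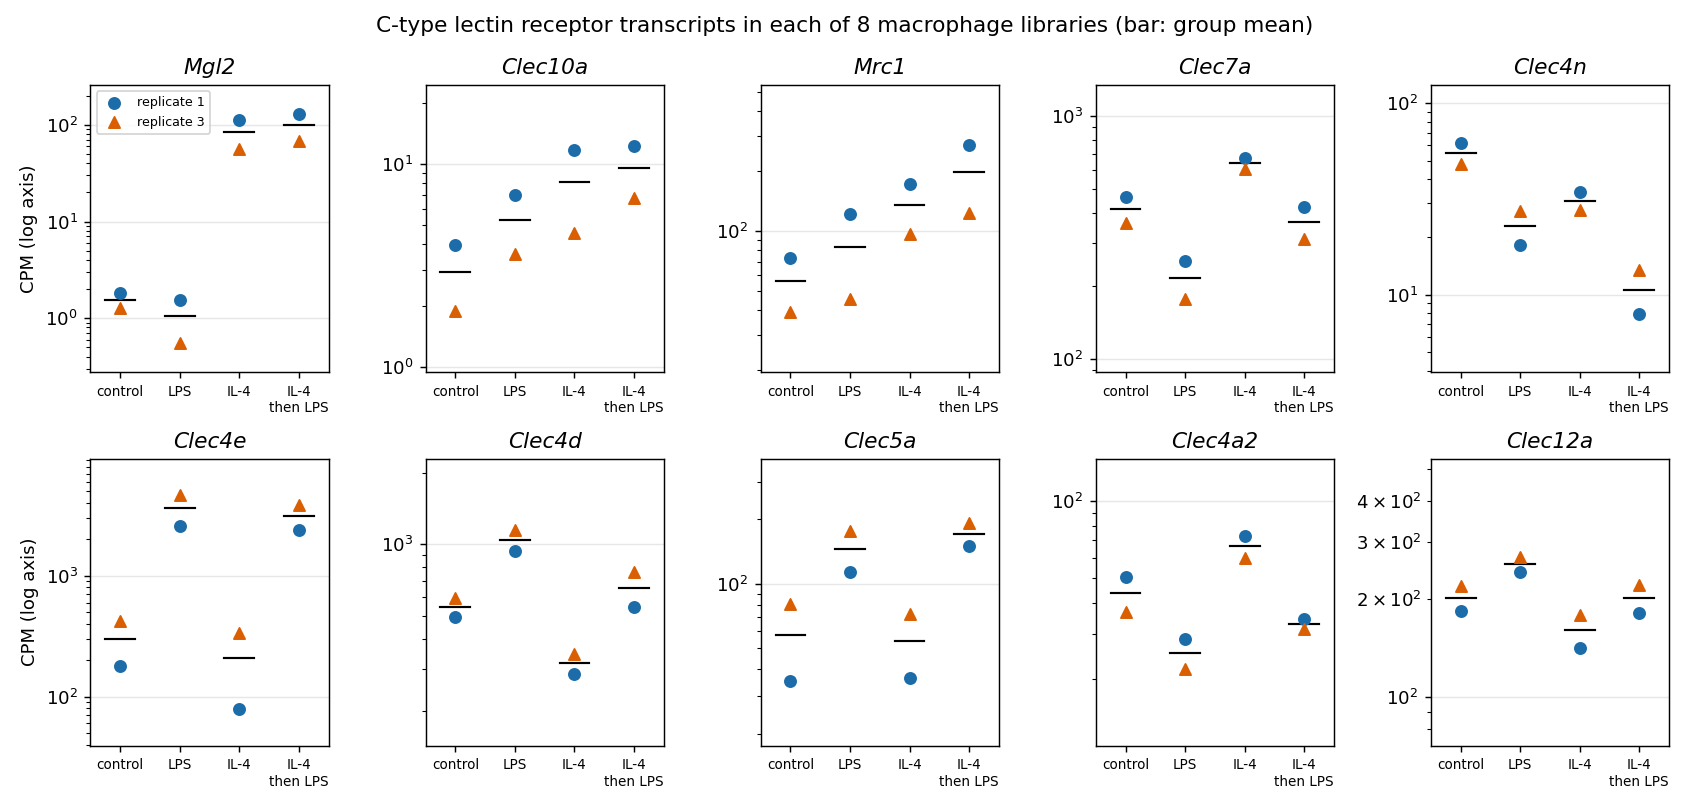
Level of each of the 10 transcripts (CPM, log axis) in the 8 libraries by group, with circles for replicate 1, triangles for replicate 3 and a bar for the group mean. Mgl2 stands at 0.553 to 1.82 CPM in the 4 libraries without IL-4 and at 55.8 to 129.8 CPM in the 4 with it, and Clec4e at 78.4 to 423 CPM without LPS and 2369.6 to 4644 CPM with it.

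The activating receptors went in both directions with LPS. Of the 10 genes, 3 rose and 3 fell after LPS, against 40.4% of all tested genes called (21.8% higher and 18.6% lower). The members that rose were Clec4e, Clec4d and Clec5a, and those that fell were Clec7a, Clec4n and Clec4a2. Against a background of that size nothing particular to lectin receptors is read from the count. Without control replicate 1 or LPS replicate 3 fewer members were called, and fewer of all tested genes as well. Fitted with the replicate number, 6 rose and 3 fell, where 53.7% of genes were called (28.2% higher and 25.5% lower), Clec10a, Mrc1 and Clec12a being the further genes that rose. The members' median LPS difference was 0.45, against -0.01 over all tested genes.

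Clec4e encodes Mincle, the receptor for trehalose dimycolate of mycobacteria and for a nuclear protein released by dead cells. It measured 180.6 and 423 CPM in the controls and 2587 and 4644 CPM with LPS. With IL-4 it measured 78.4 and 336 CPM, and after IL-4 then LPS 2369.6 and 3841 CPM. The lowest library with LPS was several times the highest without it, and replicate 3 was the higher in every group. The LPS rise was 12.0-fold without IL-4 (3.58 ± 0.741, adjusted p 0.00648) and 14.98-fold after it (3.91 ± 0.753, adjusted p 0.00489). Both calls held in all 15 alternatives run for each. IL-4 itself left no call on Clec4e, with -0.54 ± 0.674 at rest (adjusted p 0.918) and -0.22 ± 0.669 under LPS (adjusted p 0.96).

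Clec4d encodes MCL, which pairs with Mincle and the Fcer1g chain, and lies 6.523 kb from Clec4e. Controls measured 497 and 597 CPM and LPS libraries 935 and 1144 CPM. IL-4 libraries measured 285 and 348 CPM, and those with IL-4 then LPS 547 and 765 CPM. No library with LPS overlapped its counterpart group without LPS, and each IL-4 group lay below the matching group without IL-4. The rise with LPS was 1.90-fold (0.93 ± 0.217, adjusted p 0.0113), and 2.07-fold after IL-4 (1.05 ± 0.218, adjusted p 0.00681). The IL-4 difference was -0.79 ± 0.217 at rest (adjusted p 0.392) and -0.66 ± 0.216 under LPS (adjusted p 0.444), and with the replicate term it fell in both (adjusted p 0.00735 and 0.0149). After IL-4 then LPS its libraries overlapped those of the untreated controls. The LPS call was lost without control replicate 1 (adjusted p 0.101) or LPS replicate 3 (0.0676) and with library size alone as the scale (0.15), and the call after IL-4 was lost without IL-4 replicate 1 (0.055).

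Clec5a encodes MDL-1, which signals through Tyrobp. It measured 35.1 and 80.9 CPM in the controls, 114 and 177 with LPS, 36.5 and 72.2 with IL-4, and 151 and 192 CPM after IL-4 then LPS. The LPS groups did not overlap the groups without LPS, while each IL-4 group overlapped its counterpart without IL-4. The LPS rise was 2.51-fold (1.33 ± 0.448, adjusted p 0.0473) and, after IL-4, 3.15-fold (1.66 ± 0.452, adjusted p 0.0218). The former call was lost in 7 of 15 alternatives, with an adjusted p of 0.238 without control replicate 1, 0.212 without LPS replicate 3, and 0.0633 and 0.0639 without replicate 1 or 3 of IL-4 then LPS. It was also lost with upper-quartile factors (0.0795), with library size alone (0.16) and with the 2 groups fitted alone (0.053). The latter call was lost without IL-4 replicate 1 (adjusted p 0.118) or IL-4 then LPS replicate 3 (0.0941). Its IL-4 differences were -0.09 ± 0.445 and 0.24 ± 0.439.

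Clec7a encodes Dectin-1, the receptor for fungal beta-glucan, which carries its own activating tyrosine motif. Controls measured 465 and 364 CPM, and IL-4 libraries 674 and 606 CPM. LPS libraries measured 254 and 176 CPM, and those with IL-4 then LPS 424 and 312 CPM. The 2 groups without LPS lay above their LPS counterparts, and each IL-4 group lay above the matching group without IL-4. It fell 1.93-fold with LPS (-0.95 ± 0.236, adjusted p 0.0146) and 1.74-fold with LPS after IL-4 (-0.80 ± 0.235, adjusted p 0.029). The IL-4 difference was 0.63 ± 0.234 at rest (adjusted p 0.601) and 0.78 ± 0.235 under LPS (adjusted p 0.416). Clec7a rose with IL-4 in both when the replicate term was fitted (adjusted p 0.0247 and 0.0126). The LPS call was lost without control replicate 1 (adjusted p 0.0639) or LPS replicate 3 (0.089). The call after IL-4 was lost without IL-4 replicate 1 (0.111), IL-4 replicate 3 (0.0652) or IL-4 then LPS replicate 3 (0.167). Clec7a is deposited with the type polymorphic pseudogene, and how its reads were assigned was not examined.

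Clec4n encodes Dectin-2, a receptor for fungal mannans that signals through Fcer1g. It measured 62.1 and 48.0 CPM in the controls and 18.2 and 27.4 CPM with LPS. IL-4 libraries measured 34.4 and 27.5 CPM, and those with IL-4 then LPS 7.88 and 13.4 CPM. Every stimulated group lay below the controls, and the libraries that received both stood lowest of all 8. The fall with LPS was 2.42-fold (-1.27 ± 0.290, adjusted p 0.01) and, after IL-4, 2.90-fold (-1.53 ± 0.305, adjusted p 0.0057). Without control replicate 1 or LPS replicate 1 the former call was lost (adjusted p 0.0505 and 0.0536). Within replicate 1 the LPS difference was -1.76 and within replicate 3 it was -0.81. The IL-4 differences of -0.83 ± 0.282 at rest (adjusted p 0.536) and -1.09 ± 0.310 under LPS (adjusted p 0.369) did not pass, and with the replicate term the adjusted p was 0.13 and 0.106.

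Of the 2 inhibitory receptors, Clec4a2 fell with LPS and Clec12a did not pass. Clec4a2 encodes DCIR1, a receptor with an inhibitory tyrosine motif. It measured 50.2 and 36.7 CPM in the controls, 28.8 and 22.0 with LPS, 73.2 and 60.0 with IL-4, and 34.6 and 31.5 CPM after IL-4 then LPS. The LPS libraries lay below those without LPS at the same IL-4 state, and each IL-4 group lay above its counterpart. The fall with LPS was 1.71-fold (-0.78 ± 0.211, adjusted p 0.021) and, after IL-4, 2.02-fold (-1.01 ± 0.208, adjusted p 0.00659). With IL-4 the difference was 0.62 ± 0.204 at rest (adjusted p 0.53), which passed with the replicate term (adjusted p 0.0286), and 0.38 ± 0.213 under LPS (adjusted p 0.684). The former LPS call was lost without control replicate 1 (adjusted p 0.0912) or LPS replicate 3 (0.117). Of its 50-base stretches, 6.83% also occur in other genes, with Clec4a4 the largest partner at 3.85%.

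Clec12a encodes MICL, an inhibitory receptor for uric acid crystals. It measured 184 and 220.0 CPM in the controls, 243 and 269.6 with LPS, 142 and 179 with IL-4, and 181 and 221 CPM after IL-4 then LPS. Its groups differed by small steps that were about the size of the gap between replicates. LPS gave 0.34 ± 0.177 (adjusted p 0.16), and 0.32 ± 0.178 after IL-4 (adjusted p 0.189). It rose in both with the replicate term (adjusted p 0.014 and 0.0199). With library size alone as the scale the 2 differences had the opposite sign, -0.26 and -0.20.

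After IL-4, 3 members rose with LPS (Clec4e, Clec4d and Clec5a) and 3 fell (Clec7a, Clec4n and Clec4a2), where 39.3% of tested genes were called (20.7% higher and 18.6% lower). Without IL-4 replicate 1 fewer members and fewer of all tested genes were called. These comparisons use different libraries. Of the 10 LPS differences, 9 had the same sign in both, as did 88.6% of all tested genes, and the exception was Mgl2, with -0.58 ± 0.806 and 0.24 ± 0.399. Fitted with the replicate number, 8 members were called after IL-4, where 51.8% of genes were (26% higher and 25.8% lower), Mrc1 and Clec12a being the further genes that rose. Whether prior IL-4 altered the LPS response was tested as the difference of the 2 responses. No member and no gene passed in edgeR, and 0 members and 322 genes had an unadjusted p under 0.05. DESeq2 called 5 genes and 0 members. Adding the replicate number in edgeR called 1 gene (0.00817%) and 0 members. The member with the largest such difference was Mgl2 at 0.81 ± 0.899, and those of Clec4e, Clec4d and Clec5a were 0.32 ± 0.948, 0.13 ± 0.304 and 0.33 ± 0.625. Without the replicate term all 10 differences were smaller than their SE. With it those of Mgl2 (0.81 ± 0.354), Clec10a (-0.58 ± 0.359), Clec4e (0.50 ± 0.391), Clec5a (0.34 ± 0.256) and Clec4a2 (-0.23 ± 0.173) exceeded their SE, none of them called. Neither unequal nor equal responses are shown. Markers of other cells also moved with LPS. Pdgfrb, a stromal marker, had 5 to 11 reads without LPS and 100 to 299 with it, and the stromal list summed to 3.96 to 5.89 CPM without and 18.2 to 46.2 CPM with LPS. Of 5 tested dendritic cell markers 2 rose with LPS and 3 after IL-4, with medians of 2.58 and 3.1. Xcr1 had 2 to 5 reads without and 11 to 70 with LPS, and Ccr7 0 to 3 without and 4 to 12 with it. Zbtb46 had 2 to 9 reads without LPS, 3 and 18 with LPS, and 38 and 42 after IL-4 then LPS. The list summed to 12.7 to 21.03 CPM without LPS and 10.4 to 36.6 CPM with it, with Cd209a at 2 reads at most and Flt3 at 7 at most in any library. Their part in the results was not tested.

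**Figure D3:**
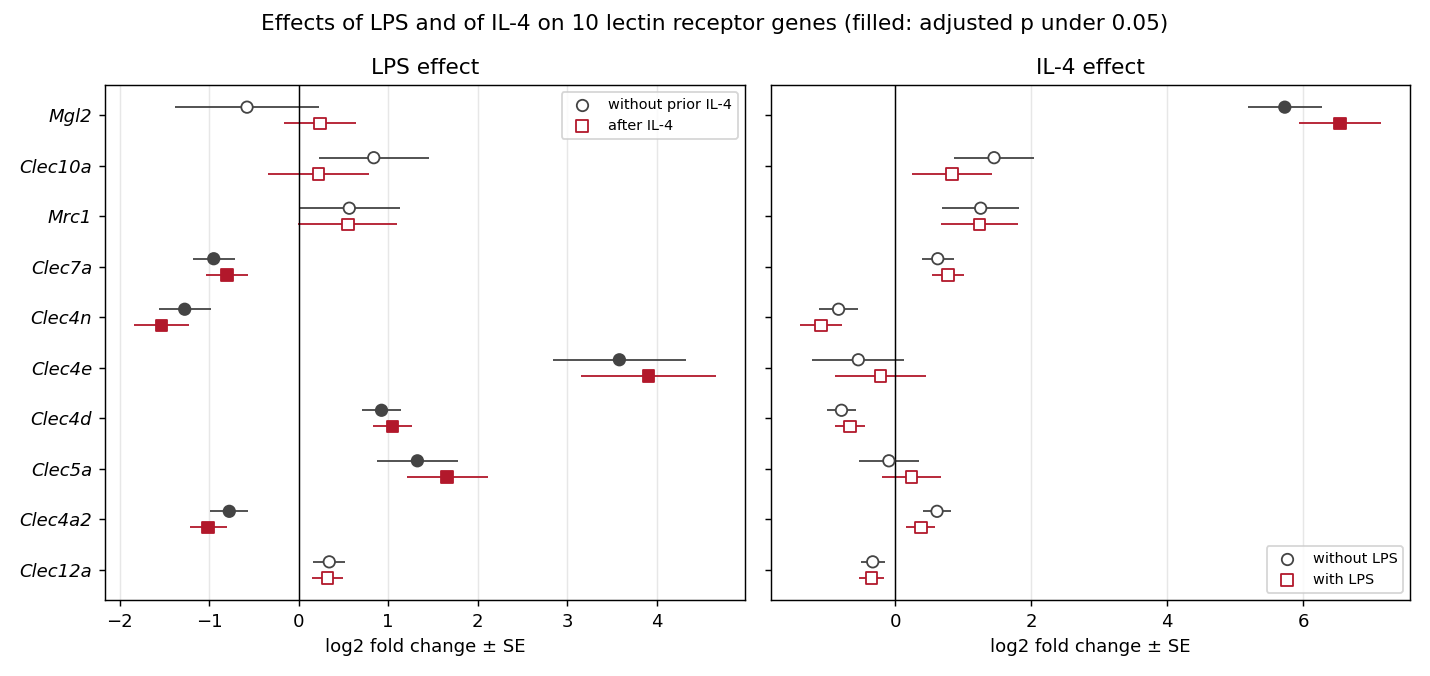
Log2 fold change ± SE of the 10 genes for LPS (left, without and after IL-4) and for IL-4 (right, without and with LPS), with filled symbols for an adjusted p under 0.05. Clec4e, Clec4d and Clec5a lie right of 0 and Clec7a, Clec4n and Clec4a2 left of it in both LPS comparisons, and in the IL-4 panel Mgl2 is filled at 5.73 and 6.54.

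Members that responded in opposite directions to LPS lie side by side in the Clec4 cluster on chromosome 6 (mm10, coordinates as deposited). Clec4a2 (123106428 to 123143999), Clec4n (123229843 to 123247021) and Clec4d (123262111 to 123275265) are on the plus strand, and Clec4e (123281789 to 123289870) is on the minus strand, so the 3′ ends of Clec4d and Clec4e face each other. Clec4n fell and Clec4d, 15.09 kb away, rose. At the other end of the cluster Clec4a1 (122921848 to 122934619), another DCIR-family gene, rose with LPS from 34.7 ± 7.39 to 112 ± 22.5 CPM (1.69 ± 0.215, adjusted p 0.000606). Clec4a1 measured 16.8 ± 0.948 CPM with IL-4, a difference of -1.04 ± 0.219 (adjusted p 0.217) that passed with the replicate term (adjusted p 0.00447). Clec4a3 gave -0.18 ± 0.190 with LPS (adjusted p 0.483). Clec4b1 had 17 reads in controls, 2 with LPS, 56 with IL-4 and 29 after IL-4 then LPS, and did not pass with LPS (adjusted p 0.152) or between IL-4 then LPS and LPS (adjusted p 0.409). The replicate term took it past the threshold in both, lower with LPS (adjusted p 0.0478) and higher with prior IL-4 (0.0493). The ratio of IL-4 then LPS to LPS for Clec4b1 was 14.3 (exact conditional 95% interval 3.62 to 124, counting error only). Clec4a4 and Clec4b2 had too few reads to be tested. Clec12a and Clec7a lie in a second cluster on chromosome 6, from 129342691 to 129472779, with Clec1a 9.59 kb and Olr1 12.46 kb from Clec7a. Clec5a lies apart on chromosome 6 (40574894 to 40585821), Mrc1 on chromosome 2 (14229392 to 14332057), and Mgl2 (70130329 to 70137550) and Clec10a (70156197 to 70170834) on chromosome 11.

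**Figure D4:**
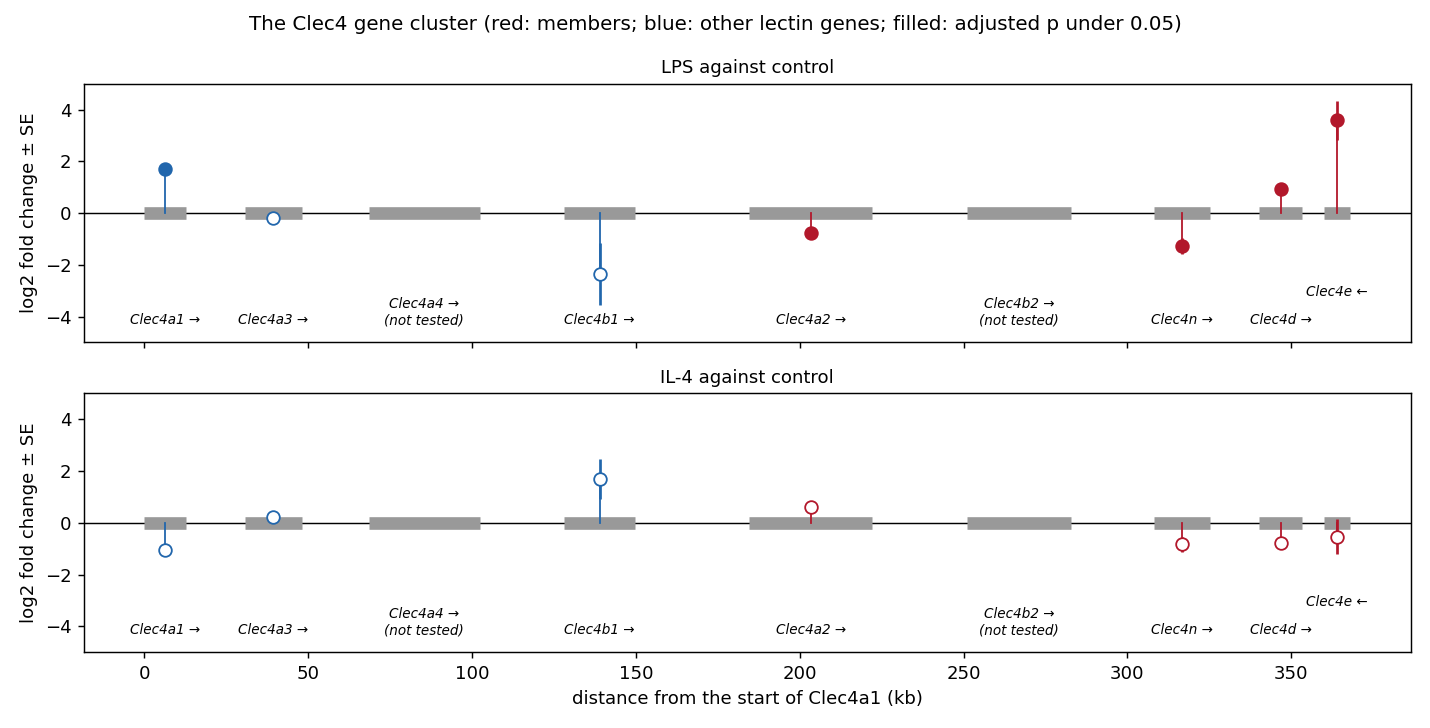
Log2 fold change ± SE of the tested genes of the Clec4 cluster by distance from the start of Clec4a1 (kb), for LPS (top) and IL-4 (bottom), with grey boxes for gene spans, arrows for strand, red for members and blue for other lectin genes, and filled symbols for an adjusted p under 0.05. With LPS, Clec4n lies at -1.27 and its neighbours Clec4d and Clec4e at 0.93 and 3.58, and no gene of the cluster is filled with IL-4.

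Among genes of C-type lectin receptor signalling, not all of which act with every member, more rose than fell with LPS. Of 18 signalling genes, all tested, 9 rose and 3 fell with LPS, where 40.4% of all tested genes were called (21.8% higher and 18.6% lower). Their median was 0.70, against -0.01 over all genes. With the replicate term 10 rose and 4 fell, where 53.7% of all tested genes were called (28.2% higher and 25.5% lower). With IL-4 at rest 0 passed in edgeR, with or without that term (1 at an unadjusted p under 0.05, 0 in DESeq2). Under LPS 0 passed with IL-4 (2 at an unadjusted p under 0.05, 1 in DESeq2), and 2 fell with the term, the kinase gene Lyn (-0.65 ± 0.132, adjusted p 0.0435) and the exchange factor gene Vav1 (-0.91 ± 0.140, adjusted p 0.0146). In that fit 2.3% of all tested genes were called (1.08% higher and 1.22% lower). The tyrosine kinase gene Syk rose from 476 ± 68.7 to 1280 ± 325 CPM (1.43 ± 0.244, adjusted p 0.00264). The adaptor chain Fcer1g rose from 554 ± 44.8 to 958 ± 0.0212 CPM (0.79 ± 0.141, adjusted p 0.00322), while the chain Tyrobp stood at 438 ± 88.6 and 420 ± 1.33 CPM (-0.06 ± 0.175, adjusted p 0.802). The 3 genes of the complex below Syk did not move together. Card9, its scaffold, fell from 33.5 ± 0.350 to 16.4 ± 0.635 CPM (-1.03 ± 0.138, adjusted p 0.000792). Bcl10 rose by 1.04 ± 0.215 (adjusted p 0.00649) and the paracaspase Malt1 rose from 58.6 ± 13.3 to 1035 ± 243 CPM (4.14 ± 0.375, adjusted p 0.000107). Inpp5d, the lipid phosphatase SHIP1, fell from 242 ± 13 to 32.1 ± 15.9 CPM. After IL-4, 8 of the 18 rose and 4 fell with LPS, where 39.3% of all tested genes were called (20.7% higher and 18.6% lower). With the replicate term 10 rose and 5 fell, where 51.8% of all tested genes were called (26% higher and 25.8% lower).

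Among 37 other lectin-domain receptor genes, 18 could be tested. With LPS 8 rose and 2 fell, where 40.4% of all tested genes were called (21.8% higher and 18.6% lower). With the replicate term 9 rose and 4 fell, where 53.7% of all tested genes were called (28.2% higher and 25.5% lower). With IL-4 at rest 0 passed in edgeR, with 1 at an unadjusted p under 0.05 and 1 called by DESeq2, and Clec4a1 fell with the term. Under LPS 0 passed with IL-4 (2 at an unadjusted p under 0.05, 1 in DESeq2), and with the term Clec4b1 rose and Clec4a1 fell (adjusted p 0.000841). Cd69, an early activation receptor, rose from 1.55 ± 0.603 to 879 ± 93.1 CPM (9.15 ± 0.516, adjusted p 1.57e-05). Olr1, the receptor for oxidized low-density lipoprotein and neighbour of Clec7a, rose from 0.544 ± 0.769 to 26.5 ± 10.9 CPM (5.65 ± 0.825, adjusted p 0.00122). Klrk1, which encodes NKG2D, had 1 read in controls and 207 with LPS, a ratio of 312 (exact conditional 95% interval 55.4 to 12400, counting error only). Thbd, thrombomodulin, fell from 14.0 ± 4.75 to 1.26 ± 0.995 CPM (-3.47 ± 0.602, adjusted p 0.00284), and Clec2i fell from 4.95 ± 0.271 to 1.53 ± 0.0141 CPM (-1.69 ± 0.386, adjusted p 0.0103). Of the listed genes, 10 had no read in the 8 libraries, among them 6 genes of the Cd209 family, which allows at most 0.042 CPM for each over 71414138 counts (3 reads, counting error only).

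The 2 libraries of each group differed in the lectin genes in a repeated way. This comparison of replicate 3 with replicate 1 was made after the data were seen. Clec4e was 1.62- to 4.29-fold and Clec5a 1.27- to 2.30-fold as high in replicate 3 in the 4 groups. Clec4d (1.2 to 1.4) and Clec12a (1.11 to 1.26) were also higher in replicate 3 in all 4 groups. Mgl2 (0.359 to 0.707), Clec10a (0.388 to 0.551) and Mrc1 (0.375 to 0.561) were lower in replicate 3 in all 4, as were Clec7a (0.695 to 0.900) and Clec4a2 (0.731 to 0.912). Clec4n was lower in replicate 3 without LPS and higher with it. Of the 10 genes 9 were called, 4 higher and 5 lower in replicate 3, against 13.4% of tested genes (5.98% higher and 7.41% lower). That fit takes the 4 libraries of a number as separate, and whether they share an animal or culture is not given. Its p-values and SEs therefore measure the spread between these libraries, not between animals. The log2 differences were 1.2 ± 0.2 for Clec4e, -0.95 ± 0.108 for Mgl2, -1.08 ± 0.179 for Clec10a and -1.06 ± 0.101 for Mrc1. With any 1 library left out, fewer members and fewer of all tested genes were called. The number coincides with the sex seen in the Xist and Y-linked reads, and sex and any other difference between the numbers cannot be told apart.

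**Figure D5:**
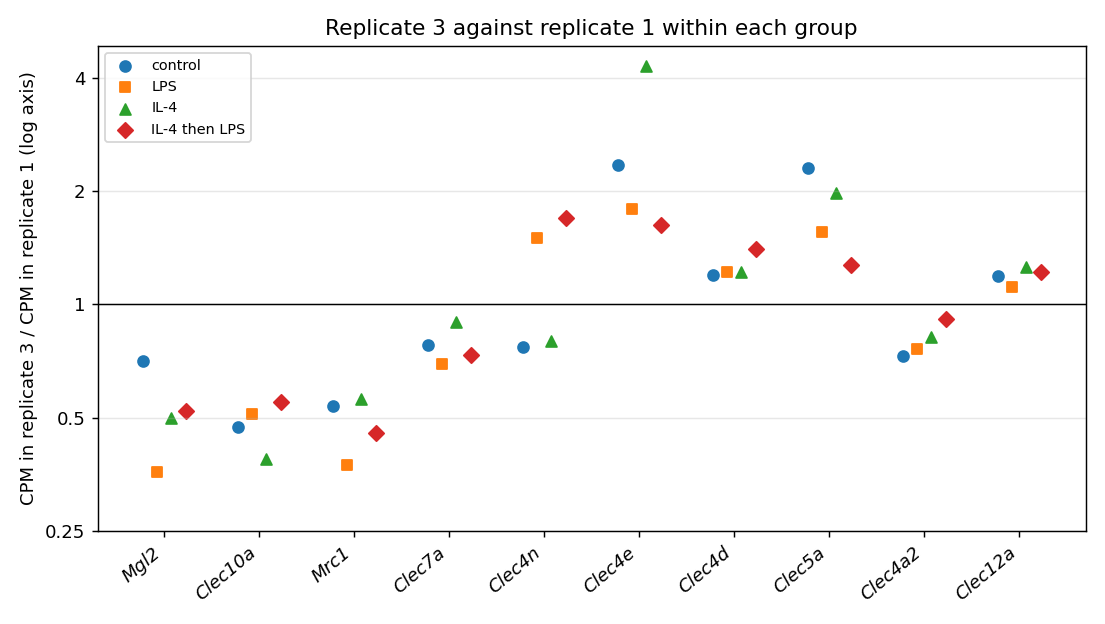
Ratio of CPM in replicate 3 to CPM in replicate 1 (log axis) for each of the 10 genes, with 1 symbol per group and a line at 1. All 4 symbols lie above the line for Clec4e, Clec4d, Clec5a and Clec12a and below it for Mgl2, Clec10a, Mrc1, Clec7a and Clec4a2, and Clec4n has 2 on each side.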

How the data were processed

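RNA counts of 8 libraries (4 groups of 2) were used. The authors deposited unnormalized counts of reads per gene, made with HISAT2, StringTie and HTSeq on mm10, per the submitters' processing notes, with no versions given. The sources used here give neither the strandedness nor the handling of reads that fit several genes. Gene lengths are as deposited, and the spans and lengths of all 10 members equal those of GENCODE M21. The table has 6 further count columns that were not used.

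Counts were fitted with edgeR 4.0.16 (R 4.3.3): filterByExpr by group, TMM scaling and the quasi-likelihood test, with 1 mean per group over all 8 libraries (4 residual degrees of freedom) and Benjamini-Hochberg adjustment over 12234 genes, called at an adjusted p under 0.05. SE is the absolute log2 fold change over the square root of F. CPM per kb divides CPM by the deposited length. Same-numbered libraries deviated together from their group means (r 0.343 to 0.524 over the 6 pairs of groups, across 12234 genes), and the second principal component (7.78% of variance) separated the numbers, so a fit with the number as a term is given where it changed a call. No pair of libraries held identical counts. Scripts were tested on simulated data.

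Members and lists were chosen with earlier results of these data known. All 10 members are named, with the signalling genes of the adaptor, kinase and Card9 route and the largest called genes of each list. Neighbours in the gene clusters and the 3 protein-coding genes most correlated with each member are also named. A signalling gene that this rule names is not reported here. Alternatives were 3 other scalings, no filter, DESeq2 1.42.0, the replicate term, the compared groups alone and leaving out each library. The average of the IL-4 effects and the comparison of replicate numbers were added after seeing the data.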

Additional observations from a re-analysis of the deposited data

How the results depend on the processing

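With 2 libraries per group precision is limited. SEs were largest for Clec4e, Clec10a, Mrc1 and, except for LPS after IL-4, Mgl2, and the low groups of Mgl2 and Clec10a hold few reads. The LPS call of Clec4e and the LPS calls after IL-4 of Clec4e, Clec4n and Clec4a2 held in all 15 alternatives, and each other member call was lost in 1 to 7 of its alternatives. Where a value changed, the cause was not tested unless stated.

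With library size alone the median of all genes was -0.61 for LPS and -0.56 for LPS after IL-4, and increases were 21.2% and 22.5% of calls instead of 53.9% and 52.8%. With upper-quartile factors the medians were -0.28 and -0.28 and increases 36.6% and 36% of calls. Library size alone turned Mrc1 (-0.034) and Clec12a (-0.26) for LPS, and Mgl2 (-0.29), Clec10a (-0.306) and Clec12a (-0.20) for LPS after IL-4. Upper-quartile factors turned Mgl2 (-0.014) and Clec10a (-0.030) for LPS after IL-4. The near-zero differences of LPS responses turned for Mrc1 and Clec12a with library size alone (0.065 and 0.062), relative log expression factors (0.0051 and 0.00024) and DESeq2 (0.0043 and 0.00028), none of them past the threshold.

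No filter on low counts gave 360 genes and 5 members for IL-4 at rest, 397 genes and 4 members for IL-4 under LPS, 53 genes for the difference of responses and 2479 for replicate 3 against 1 (1638 with the filter). DESeq2 called 110, 119 and 5 genes in those first 3 comparisons, against 8, 8 and 0. Fitting the 2 compared groups alone gave 5 genes and 0 members for IL-4 under LPS. The average of the IL-4 effects called 82 genes, and 794 genes and 8 members with the replicate term, with Clec5a at 0.073 and 0.103.

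The replicate block gave 288 genes and 6 members for IL-4 at rest, 281 genes and 4 members for IL-4 under LPS, and 1 gene for the difference of responses, where Mrc1 turned to 0.0088. Every member called without the block was called with it.

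Leaving out 1 library in turn gave 1 to 6 members for LPS (1 without control replicate 1 and 2 without LPS replicate 3), 4 to 9 genes and 0 to 1 member for IL-4 at rest, and 0 to 1 member for IL-4 under LPS. For LPS after IL-4 it gave 3116 to 4799 genes and 3 to 6 members, the lowest without IL-4 replicate 1. For replicate 3 against 1 it gave 712 to 1024 genes and 5 to 6 members. Log2 fold changes that changed sign, none of them called, ranged from -0.31 to 1.11 (Mrc1, LPS), -1.99 to 0.18 (Clec4e, IL-4), -0.71 to 0.61 (Clec5a, IL-4), -0.61 to 0.26 (Clec4e, IL-4 under LPS) and -0.045 to 0.60 (Clec5a, IL-4 under LPS). For LPS after IL-4 they ranged from -0.31 to 0.82 (Mgl2), -0.28 to 1.06 (Clec10a) and -0.12 to 1.02 (Mrc1). For the difference of responses they ranged from -1.19 to 0.27 (Clec10a), -0.69 to 0.86 (Mrc1), -0.089 to 0.44 (Clec7a), -0.70 to 0.064 (Clec4n), -0.38 to 1.80 (Clec4e), -0.14 to 0.35 (Clec4d), -0.35 to 0.98 (Clec5a), -0.42 to 0.021 (Clec4a2) and -0.17 to 0.23 (Clec12a).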

Other observations

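The transcripts that followed each receptor most closely over the 8 libraries were found by the Pearson correlation of log2 CPM among tested protein-coding genes. These are descriptions over libraries that share 4 treatments and the replicate numbers. Nearest to Mgl2 were Cd36, the scavenger receptor for oxidized lipids (r 0.988), the claudin gene Cldn11 and the ribonuclease gene Rnase2a. Nearest to Clec10a were Tmem26, Pkmyt1 and Psat1, and nearest to Mrc1 were Plxdc2, Gatm and Hddc2. Clec7a was nearest to Atp6v0d2, a subunit of the proton pump (r 0.994), the mitochondrial carrier Ucp2 and Oxct1, and Ucp2 was also the nearest to Clec4a2, followed by Rtn4ip1 and Spint1. Clec4e was nearest to the NF-kB subunit gene Relb (r 0.996), Wtap and the receptor gene Tlr2. Clec4d was nearest to Wfdc17, St18 and Ly6e, Clec5a to Manbal, Eif4g1 and Pigg, and Clec12a to Sdcbp, Ms4a7 and Tmed7. The Clec4n neighbours were 1190002N15Rik, Fam102a and Cybc1.

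Among the members themselves, Clec7a and Clec4a2 ran together (r 0.963) and opposite to Clec4d (r -0.986 and -0.975). Other close pairs were Clec4e and Clec5a (r 0.962), Clec10a and Mrc1 (r 0.956) and Clec4d and Clec12a (r 0.954), and the neighbours Clec4n and Clec4d had r -0.265.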
